A study of Mus musculus with 10 samples.

Results

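The 10 genes described here, used as markers of activated fibroblasts, were followed in mesenchyme dissected from mouse trachea, namely Cthrc1, Postn, Fap, Adam12, Lrrc15, Pdpn, Tnfrsf12a, Cdh11, Prrx1 and Runx1. They were taken as a list by gene symbol. All 10 had a value, each from 1 probe set naming that gene alone, among 22180 genes measured. The samples came from 5 male FVB/NJ mice that had breathed 235 ppm chlorine for 1 hr and were sampled 4 days later, and from 5 male FVB/NJ mice with no exposure, all 9 weeks old. Tissue lying under the epithelium was cut by laser from stained frozen sections, sections of a mouse were pooled, and 1 Affymetrix array was run per mouse. The question put by the comparison, given the series title on fibrotic lesions forming in the trachea, is which transcripts differ in that tissue between the groups.

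Fibroblasts at rest hold connective tissue together and make matrix slowly. When an airway is injured, some take on an activated state in which they divide, move, make more collagen and display proteins that resting cells show little of. The 10 genes are read as signs of that state: 2 encode secreted matrix proteins, 6 encode proteins of the cell surface, and 2 encode transcription factors of mesenchymal or blood lineages. Several are also made by other cells of an airway wall. Pdpn is known from lymphatic endothelium and basal epithelium, and Runx1 from leukocytes and epithelium.

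At 4 days after chlorine the list did not move as 1 block. Cthrc1, Adam12, Tnfrsf12a and Pdpn rose, Runx1 fell, and Postn, Lrrc15, Cdh11, Fap and Prrx1 did not pass the test. The rises ran from 4.79-fold for Cthrc1 to 1.39-fold for Pdpn. Values are log2 intensities, so that 1 unit is a doubling, and genes with an adjusted p under 0.05 in limma, adjusted over all 22180 genes, are those called. Of the 10 markers 5 were called, while 10.8% of all genes were called in either direction, 5.85% higher and 4.97% lower. For 4 of the 10 the ranges of the groups were apart, with exposed mice above for 3 and below for 1, while they were apart for 11.0% of all genes, 5.89% above and 5.06% below. The median log2 change of the 10 markers was 0.50, against -0.003 over all genes. In bulk tissue, fewer cells of a type and less RNA per cell cannot be told apart.

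**Figure D1:**
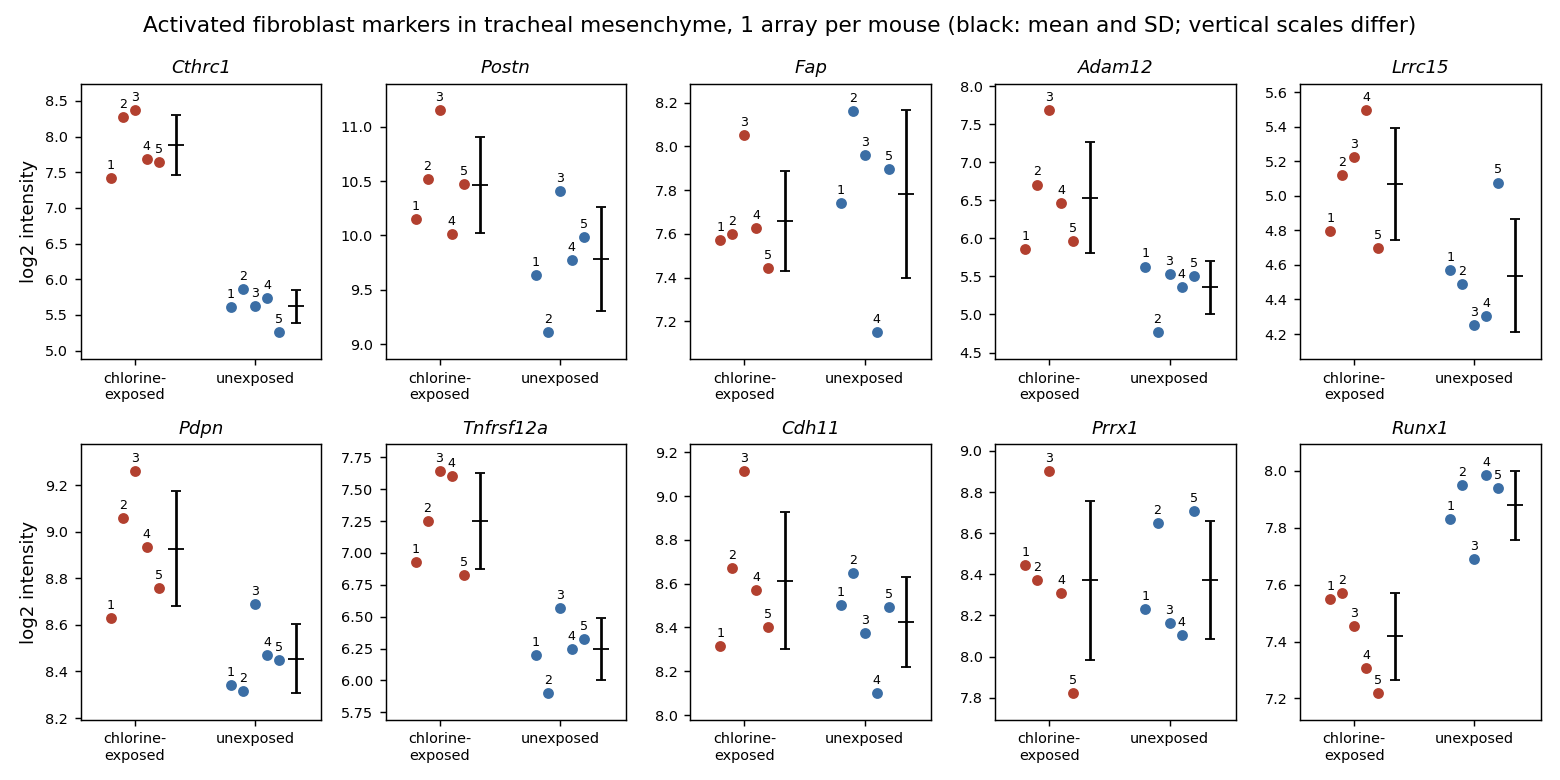
Log2 intensity of each marker (vertical axis, a scale of its own per panel) in the 5 chlorine-exposed mice (red) and the 5 unexposed mice (blue), with the mouse number above each point and the mean and SD in black. The groups lie wholly apart for Cthrc1, Adam12 and Tnfrsf12a, with exposed mice above, and for Runx1, with exposed mice below.

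Exposed mouse 3 stood apart from its group in these tissues. Its mean over 6 genes shared by epithelial cells (Epcam, Cdh1, Krt8, Krt18, Krt19 and Cldn7) was 8.27, with 8.93 to 9.26 in the other 4 exposed mice and 8.68 to 9.14 in unexposed mice. It also held the highest value of its group for 8 of the 10 markers. Changes with and without it are therefore given for each called marker. Array medians lay between 5.10 and 5.18 over the 10 arrays, and the number of arrays limits the precision. No detection limit was available, so that whether a low value is above background is not known.

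Among the secreted proteins, Cthrc1 showed the largest change of the 10. Cthrc1 encodes a collagen triple helix repeat protein released by fibroblasts in injured and fibrotic tissue. Its log2 value was 7.42, 8.27, 8.37, 7.69 and 7.64 in exposed mice 1 to 5, against 5.61, 5.87, 5.63, 5.73 and 5.25 in unexposed mice 1 to 5. Every exposed mouse was above every unexposed mouse, and the lowest exposed value lay 1.56 log2 units above the highest unexposed one. The means were 7.88 ± 0.42 in exposed mice and 5.62 ± 0.23 in unexposed mice (SD, n = 5 each), a 4.79-fold rise (log2 change 2.26, SE 0.19, adjusted p = 5.45e-05). Without exposed mouse 3 the change was 2.14, and over the 10 fits that each left out 1 mouse it was 2.14 to 2.38 with adjusted p of at most 0.000305.

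Postn encodes periostin, a matricellular protein that binds integrins and aids collagen assembly. Its log2 value was 10.15, 10.52, 11.15, 10.01 and 10.47 in exposed mice 1 to 5, against 9.64, 9.11, 10.41, 9.77 and 9.99 in unexposed mice 1 to 5. The groups overlapped, with unexposed mouse 3 above exposed mice 1 and 4. The log2 change was 0.68 (95% interval 0.12 to 1.23) and did not pass (adjusted p = 0.121). None of the 10 fits without 1 mouse called it, with adjusted p from 0.0608 to 0.237. It passed in a fit that took the 6-gene epithelial mean as a covariate (log2 change 0.65, adjusted p = 0.0395). The part of epithelium in this result was not otherwise tested.

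Of the surface proteases, Adam12 rose and Fap did not pass. Adam12 encodes a metalloprotease with a disintegrin domain, which sheds growth factor precursors from the cell surface and is low in most adult tissues. Its log2 value was 5.86, 6.71, 7.68, 6.47 and 5.96 in exposed mice 1 to 5, against 5.63, 4.76, 5.53, 5.36 and 5.51 in unexposed mice 1 to 5. The groups did not overlap, although exposed mice 1 and 5 were close to the upper unexposed values and exposed mouse 3 was far above the rest. The means were 6.54 ± 0.73 in exposed mice and 5.36 ± 0.34 in unexposed mice (SD, n = 5 each), a 2.26-fold rise (log2 change 1.18, SE 0.31, adjusted p = 0.032). Without exposed mouse 3 the change was 0.89 and the call held (adjusted p = 0.0251). The call was lost on leaving out exposed mouse 2 or 4 or any 1 of the unexposed mice 1 to 5, with adjusted p from 0.0149 to 0.0784 over the 10 fits, highest without unexposed mouse 2.

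Fap encodes fibroblast activation protein, a membrane serine protease of activated stroma. Its log2 values ran from 7.44 to 8.05 in exposed mice and from 7.15 to 8.16 in unexposed mice. Unexposed mice 2 and 4 held the highest and the lowest value of all 10, so that the unexposed range enclosed the exposed one. The log2 change was -0.12 (95% interval -0.52 to 0.28, adjusted p = 0.749), which leaves room for a rise of up to 0.28 log2 units or a fall of up to 0.52.

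Lrrc15 encodes a leucine-rich repeat membrane protein of TGF-beta-driven fibroblasts. Its log2 value was 4.80, 5.12, 5.23, 5.50 and 4.70 in exposed mice 1 to 5, against 4.57, 4.49, 4.25, 4.30 and 5.08 in unexposed mice 1 to 5. Unexposed mouse 5 lay above exposed mice 1 and 5, and the other 4 unexposed mice lay below every exposed mouse. The log2 change was 0.53 (95% interval 0.12 to 0.94) and did not pass (adjusted p = 0.0997). Without unexposed mouse 5 it was 0.66 and passed (adjusted p = 0.0345), and over the 10 fits adjusted p reached 0.208. The means of both groups, 4.54 in unexposed mice and 5.07 in exposed mice, were below every array median.

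Tnfrsf12a and Pdpn both rose, and their promoters are shown because they are the rising markers with a window in the sequence table used. Tnfrsf12a encodes Fn14, the small receptor of the cytokine TWEAK, which signals through TRAF adaptors to NF-kappaB. Pdpn encodes podoplanin, a mucin-type membrane glycoprotein that binds the platelet receptor CLEC-2 and links to the actin skeleton through ezrin and moesin. The sequences are RefSeq windows of GRCm38.p6, from 250 bases before to 50 after the start of transcription, read 5′ to 3′ on the minus strand, and they come from the reference strain, not from FVB/NJ. That of Tnfrsf12a is chr17:23677400-23677699 and that of Pdpn is chr4:143299515-143299814. Capitals mark letters matching a motif of SP1/KLF factors (GGGCGG), the only one found in these windows among 6 motifs searched on both strands. The others were AP-1 (TGANTCA), TEAD (GGAATG), RUNX (TGTGGT), the TATA box (TATAAA) and NF-kappaB.
Tnfrsf12a promoter: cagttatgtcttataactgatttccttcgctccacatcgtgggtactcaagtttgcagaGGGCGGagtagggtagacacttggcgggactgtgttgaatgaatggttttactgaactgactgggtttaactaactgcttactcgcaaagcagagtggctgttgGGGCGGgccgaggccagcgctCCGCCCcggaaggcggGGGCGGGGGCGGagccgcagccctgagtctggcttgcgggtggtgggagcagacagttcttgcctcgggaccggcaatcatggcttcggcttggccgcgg
Pdpn promoter: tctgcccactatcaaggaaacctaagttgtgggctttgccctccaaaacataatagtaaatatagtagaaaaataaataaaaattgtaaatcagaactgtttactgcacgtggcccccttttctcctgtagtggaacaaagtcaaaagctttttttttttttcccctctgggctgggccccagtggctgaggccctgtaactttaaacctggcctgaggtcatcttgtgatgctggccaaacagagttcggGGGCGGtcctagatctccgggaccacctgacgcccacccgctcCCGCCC
The Tnfrsf12a window held 5 matches to GGGCGG, beginning at -191, -87, -66, -50 and -44 from the start, and the Pdpn window held 2, beginning at 2 and 45. Of all 32851 promoter windows, 35.7% held at least 1 such match. Windows were found for 6 of the 10 markers, 8 windows in all, since Postn and Runx1 have 2 each. A match to the AP-1 motif was present in the Lrrc15 window alone among the 8, against 7.8% of all windows, and none held the NF-kappaB motif, against 1.6%.

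The log2 value of Tnfrsf12a was 6.93, 7.25, 7.64, 7.60 and 6.83 in exposed mice 1 to 5, against 6.20, 5.90, 6.57, 6.24 and 6.32 in unexposed mice 1 to 5. All exposed mice were above all unexposed mice. The means were 7.25 ± 0.37 in exposed mice and 6.25 ± 0.24 in unexposed mice (SD, n = 5 each), a 2.01-fold rise (log2 change 1.00, SE 0.18, adjusted p = 0.00455). The call held in each of the 10 fits without 1 mouse (log2 change 0.91 to 1.11, adjusted p 0.00343 to 0.0143), with 0.91 without exposed mouse 3.

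The log2 value of Pdpn was 8.63, 9.06, 9.26, 8.93 and 8.76 in exposed mice 1 to 5, against 8.34, 8.32, 8.69, 8.47 and 8.45 in unexposed mice 1 to 5. Unexposed mouse 3 was above exposed mouse 1, and the groups were otherwise apart. The means were 8.93 ± 0.25 in exposed mice and 8.45 ± 0.15 in unexposed mice (SD, n = 5 each), a 1.39-fold rise (log2 change 0.47, SE 0.13, adjusted p = 0.0377). The call was lost when exposed mouse 2, 3 or 4 or unexposed mouse 1, 2, 4 or 5 was left out, with adjusted p from 0.0158 to 0.0892 over the 10 fits, highest without unexposed mouse 1. Without exposed mouse 3 the change was 0.39 (adjusted p = 0.0618). Genes of basal epithelium and lymphatic endothelium, cells that also make podoplanin, are given beside it. The mean of 10 basal epithelial genes was 7.70 to 8.63 in exposed mice and 7.19 to 7.51 in unexposed mice. Of the 10, 5 rose and 5 were not called, with a median log2 change of 0.40. Krt14 and Dsg3 rose most (4.31 and 3.96), while Krt15 (-0.52, adjusted p = 0.581) and Trp63 (-0.40, adjusted p = 0.506) did not pass. Exposed mouse 3, with the highest Pdpn value, had the lowest basal mean of its group. The mean of 5 lymphatic endothelial genes was 6.14 to 6.61 in exposed mice and 5.95 to 6.41 in unexposed mice, and 1, Lyve1, rose. None of these genes was at 0 on all arrays, which does not show that they were detected. Their part in the Pdpn result was not tested.

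Cdh11 encodes cadherin 11, which joins mesenchymal cells to each other. Its log2 values ran from 8.31 to 9.11 in exposed mice and from 8.10 to 8.65 in unexposed mice, so that the groups overlapped between 8.31 and 8.65. The log2 change was 0.19 (95% interval -0.15 to 0.53, adjusted p = 0.518). Without exposed mouse 3, the highest of the 10, it was 0.07.

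**Figure D2:**
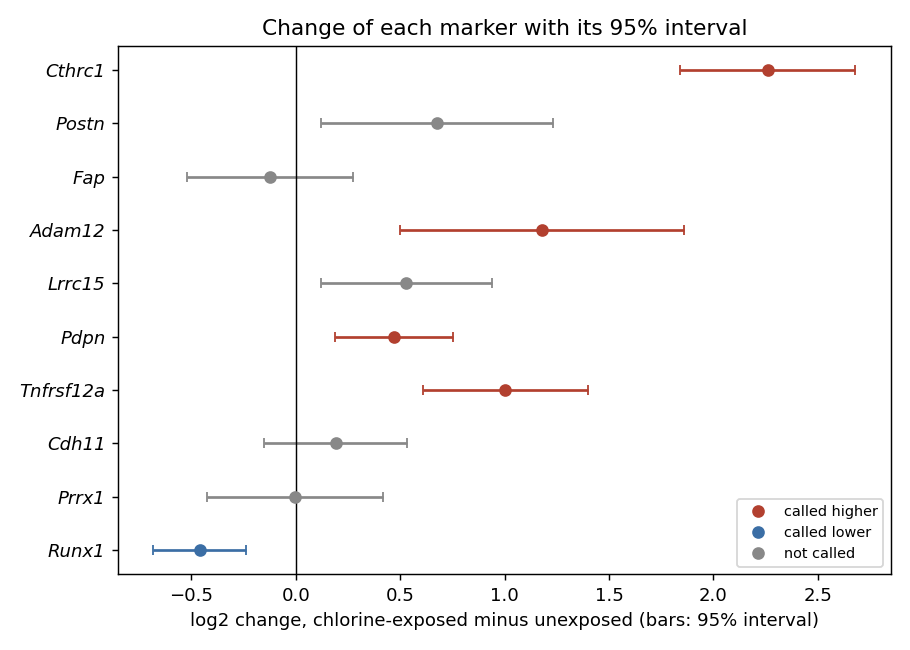
Log2 change of each marker, chlorine-exposed minus unexposed (horizontal axis), with its 95% interval from limma. The 4 markers called higher are red, Runx1, called lower, is blue, and the 5 that did not pass are grey, with the intervals of Postn and Lrrc15 above 0 before adjustment.

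The 2 transcription factors differed in what they showed. Runx1 encodes a DNA-binding partner of CBF-beta that is best known from blood formation and is also used by activated mesenchymal and epithelial cells. Its log2 value was 7.55, 7.57, 7.45, 7.31 and 7.22 in exposed mice 1 to 5, against 7.83, 7.95, 7.69, 7.99 and 7.94 in unexposed mice 1 to 5. All exposed mice were below all unexposed mice. The means were 7.42 ± 0.15 in exposed mice and 7.88 ± 0.12 in unexposed mice (SD, n = 5 each), and it fell by 0.46 on the log2 scale (SE 0.10, adjusted p = 0.0143), a level 1.37-fold higher in unexposed mice. The call held in each of the 10 fits without 1 mouse (log2 change -0.51 to -0.41, adjusted p 0.0136 to 0.0402), with -0.47 without exposed mouse 3 (adjusted p = 0.0219). Leukocytes also make Runx1. The mean of 15 leukocyte and macrophage genes was 7.09 to 7.80 in exposed mice and 6.62 to 7.10 in unexposed mice. Of the 15, 8 were higher, 0 lower and 7 not called. No gene of the 15 was at 0 on all arrays, which does not show that they were detected. The 8 called are genes of macrophages and other myeloid cells, and the common leukocyte antigen gene Ptprc was not among them. Myeloid genes were also among the 7 not called, namely Lyz2 (-0.34), Cd14 (-0.28), Csf1r (0.40) and Spi1 (0.42). The T cell gene Cd3e changed by -0.89 (95% interval -1.65 to -0.13) and was not called either. The part of leukocytes in the Runx1 result was not tested.

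Runx1 has 2 promoters, a distal and a proximal one, and both are shown since Runx1 was the marker that fell and 1 probe set for the gene cannot tell them apart. They are RefSeq windows of GRCm38.p6 on the minus strand, chr16:92826025-92826324 for the distal and chr16:92697280-92697579 for the proximal one, with motif matches in capitals.
Runx1 distal promoter: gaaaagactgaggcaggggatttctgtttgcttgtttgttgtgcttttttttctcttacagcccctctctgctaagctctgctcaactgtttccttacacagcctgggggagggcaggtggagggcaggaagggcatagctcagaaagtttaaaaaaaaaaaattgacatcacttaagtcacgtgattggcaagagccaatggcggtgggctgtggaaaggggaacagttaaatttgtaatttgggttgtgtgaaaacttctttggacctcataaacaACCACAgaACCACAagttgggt
Runx1 proximal promoter: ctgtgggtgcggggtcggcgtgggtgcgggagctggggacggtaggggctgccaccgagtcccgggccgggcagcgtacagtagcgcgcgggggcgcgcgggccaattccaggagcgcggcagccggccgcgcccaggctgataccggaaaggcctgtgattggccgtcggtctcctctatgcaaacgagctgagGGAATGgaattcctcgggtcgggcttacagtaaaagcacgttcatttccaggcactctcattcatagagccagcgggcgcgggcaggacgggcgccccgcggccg
The distal window held 2 matches to the RUNX motif TGTGGT, beginning at 29 and 37 and both on the opposite strand, where they read ACCACA on the strand printed. At least 1 such match was present in 16.8% of all windows. The proximal window held 1 match to the TEAD motif GGAATG at -55, against 14.7% of all windows.

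Prrx1 encodes a homeodomain factor that marks mesenchyme of limb and face in development and fibroblasts later. Its log2 values ran from 7.82 to 8.90 in exposed mice and from 8.11 to 8.71 in unexposed mice. Exposed mice held both the highest value, in mouse 3, and the lowest, in mouse 5. The log2 change was -0.002 (95% interval -0.42 to 0.42, adjusted p = 0.997), and it was -0.14 without exposed mouse 3 and 0.13 without exposed mouse 5.

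Within the exposed group most markers were highest in the same mouse. Exposed mouse 3 was highest for Cthrc1, Postn, Fap, Adam12, Pdpn, Tnfrsf12a, Cdh11 and Prrx1, and over all genes it was the highest of its group for 29.6%. Its distance above the mean of the other 4 exposed mice ran from 0.04 log2 units for Runx1 to 1.43 for Adam12, with a median of 0.55, against 0.04 over all genes. Exposed mouse 1 was lowest for Cthrc1, Adam12, Pdpn and Cdh11, and exposed mouse 5 for Fap, Lrrc15, Tnfrsf12a, Prrx1 and Runx1. In unexposed mice no mouse was highest for more than 3 of the markers, and unexposed mouse 2 was lowest for 4.

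**Figure D3:**
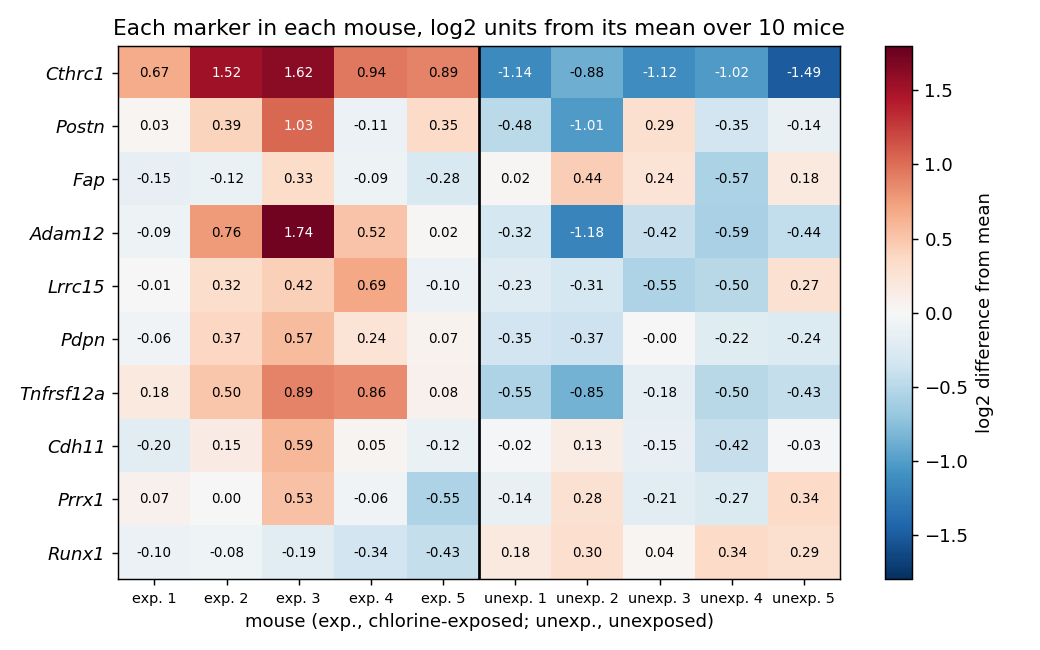
Each marker (rows) in each mouse (columns), as the difference in log2 units from that marker's mean over the 10 mice, with the value printed in each cell. The column of exposed mouse 3 is positive for all markers but Runx1, and the row of Cthrc1 is positive in all exposed and negative in all unexposed mice.

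Other gene lists also stood apart in exposed mouse 3. Its mean over 29 other genes of activated fibroblasts was 8.81, with 7.94 to 8.33 in the other 4 exposed mice and 7.62 to 7.87 in unexposed mice. Its basal epithelial mean was 7.70, with 8.47 to 8.63 in the other exposed mice. It was above the other 4 exposed mice in the means of cartilage genes (8.36, with 6.25 to 7.54) and of TGF-beta genes (7.83, with 7.40 to 7.52). It was also above them in those of smooth muscle (9.73, with 9.06 to 9.45), pericyte (8.24, with 7.69 to 7.96) and blood endothelial genes (7.66, with 6.78 to 7.37). The same held for resting fibroblast genes (8.19, with 7.94 to 8.07) and leukocyte and macrophage genes (7.80, with 7.09 to 7.68). Relatives of the markers (7.23, with 6.85 to 7.17) and Schwann cell genes (7.88, with 7.18 to 7.57) were likewise highest there. Its mitosis mean was the lowest of the group (7.29, with 7.45 to 8.27). The part of the tissue's makeup in the high marker values of that mouse was not tested. Without exposed mouse 3, 3 of the 10 markers were called higher (Cthrc1, Adam12 and Tnfrsf12a) and 1 lower (Runx1), while 10.8% of all genes were called in that fit. With the 6-gene epithelial mean as a covariate, 5 were called higher, Postn being added, and 1 lower, while 13.0% of all genes were called.

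**Figure D4:**
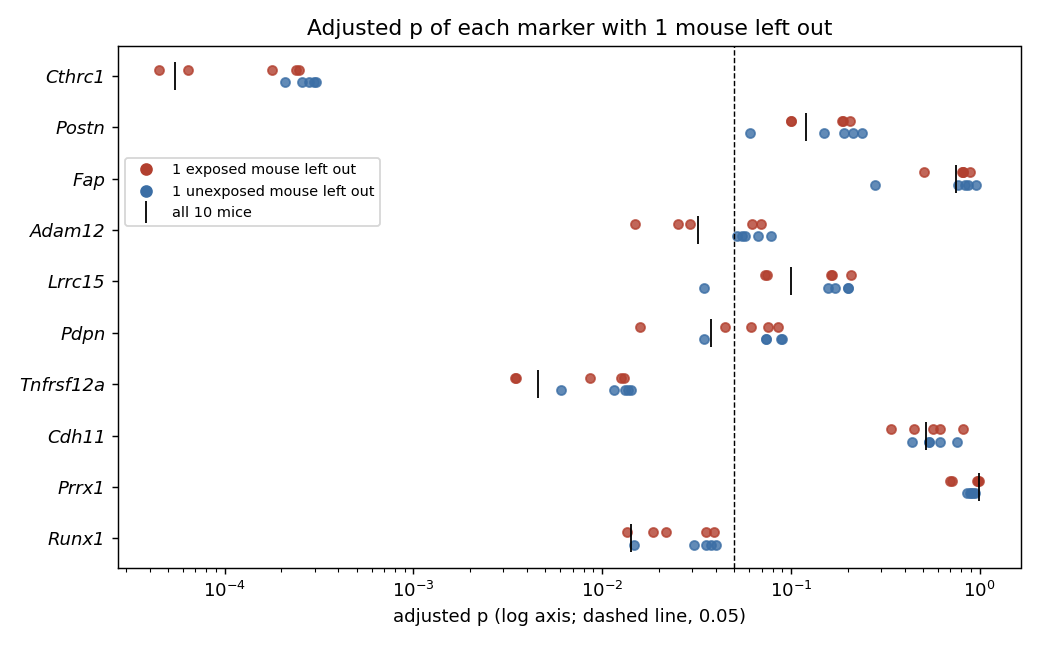
Adjusted p of each marker (horizontal log axis, with 0.05 as the dashed line) in the fit of all 10 mice (black bar) and in the 10 fits that left out 1 exposed mouse (red) or 1 unexposed mouse (blue). Cthrc1, Tnfrsf12a and Runx1 stay left of the line in each of the fits, Adam12 and Pdpn lie on both sides of it, and Lrrc15 crosses it in 1.

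Other genes read as activated fibroblast genes, among them collagens, matrix enzymes and mesenchymal transcription factors, were read from the same fit. Of 29 such genes 12 rose, 0 fell and 17 did not pass, with a median log2 change of 0.51. Tnc, which encodes tenascin C, rose by 2.46 log2 units (adjusted p = 0.000783). Mmp14, a membrane collagenase, rose by 1.52 (adjusted p = 5.45e-05) and Inhba, which encodes an activin subunit, by 1.34 (adjusted p = 0.000192). Col1a1, the main chain of type I collagen, rose by 0.87, and its call was lost without exposed mouse 4 (adjusted p = 0.0501). Col1a2, the other chain, changed by 0.34 and did not pass (adjusted p = 0.142). Among the 12 called, Ccn4, Vim, Col5a1, Lox and Pdgfra also lost their calls, in 8, 7, 4, 2 and 2 of the 10 fits. Grem1 changed by -0.92 (95% interval -1.57 to -0.28) and Col8a1 by -0.76 (95% interval -1.45 to -0.06). Neither passed (adjusted p = 0.071 and 0.166), although both intervals lay below 0 before adjustment. Acta2, the smooth muscle actin of myofibroblasts, changed by 0.09 (95% interval -0.31 to 0.48, adjusted p = 0.825), and limma called 0 of 11 smooth muscle genes, with 0 at an unadjusted p under 0.05.

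Relatives of the markers went both ways. Of 18 measured, 3 rose, 2 fell and 13 did not pass, with a median log2 change of 0.23. Among Adam12's relatives, Adam9 rose by 0.67 (adjusted p = 0.00177) and Adam10 by 0.44 (adjusted p = 0.011), both membrane sheddases. Adam17, which releases TNF, rose by 0.45 (adjusted p = 0.0366), but lost its call without any 1 of exposed mice 1, 2 and 4 and unexposed mice 1, 3, 4 and 5 (adjusted p up to 0.0846). Adam8, of leukocytes, fell by 1.25 (adjusted p = 0.0177) and Adam33, of mesenchyme, by 0.53 (adjusted p = 0.0168). Fap's close relative Dpp4 changed by -0.19 (95% interval -0.57 to 0.18), and Dpp8 by 0.02 (95% interval -0.14 to 0.19). The periostin paralog Tgfbi changed by 0.29 (adjusted p = 0.464), Prrx2 by 0.24 (adjusted p = 0.392) and Runx3 by -0.03 (adjusted p = 0.951). Among cadherins, Cdh3 of epithelium changed by 0.86 (adjusted p = 0.0596) and Cdh5 of endothelium by 0.69 (adjusted p = 0.0618), against 0.19 for Cdh11.

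Around the Fn14 receptor the pathway genes gave 1 call. The 8 measured were genes of TRAF adaptors, inhibitors of apoptosis and NF-kappaB subunits, and the kinase gene Map3k14. Of these 8, 1 rose, 0 fell and 7 did not pass, with a median log2 change of 0.07. That 1 was Birc3, an inhibitor of apoptosis that binds TRAF2, with a change of 0.43 (adjusted p = 0.0379). Its call was lost without any 1 of exposed mice 3, 4 and 5 and unexposed mice 2, 3, 4 and 5 (adjusted p up to 0.0916). Traf2 changed by 0.03 (95% interval -0.18 to 0.25) and Nfkb2 by 0.22 (95% interval -0.07 to 0.51). Traf3, Nfkb1 and the ligand gene Tnfsf12 were not analysed here.

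Binding partners and substrates of the marker proteins gave 2 rises and 1 fall among 25, with a median log2 change of -0.003. Hbegf, a growth factor precursor that ADAM12 sheds, rose by 0.72 (adjusted p = 0.0173). Bmp1, a procollagen protease that binds periostin, rose by 0.57 and lost its call without any 1 of exposed mice 2, 3 and 4 and unexposed mice 1, 4 and 5 (adjusted p up to 0.081). Ezr, which encodes the podoplanin partner ezrin, fell by 0.47 (adjusted p = 0.0464). Of the 10 fits, 8 lost its call (adjusted p up to 0.109), and it held when exposed mouse 1 or unexposed mouse 5 was the one left out. Of 15 TGF-beta ligands, receptors and targets, 1 rose, the latent TGF-beta binding protein gene Ltbp1 (0.63, adjusted p = 0.00199), 0 fell and 14 did not pass.

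Markers of resting fibroblasts went both ways. Of 21, 2 rose, 3 fell and 16 did not pass, with a median log2 change of -0.04. Inmt, which encodes an amine methyltransferase, fell by 2.05 (adjusted p = 0.000834) and Ces1d, which encodes a carboxylesterase, fell by 1.85 (adjusted p = 0.00625). Gsn, which encodes the actin-severing protein gelsolin, fell by 0.71. Mfap5, of microfibrils, rose by 0.74 and the transcription factor gene Tcf21 by 0.71. Of 7 pericyte genes only the potassium channel gene Kcnj8 was called, with a rise of 1.13 (adjusted p = 0.00187). Of 13 cartilage genes 4 fell and 0 rose, and without exposed mouse 3 this count was 8. Genes of other cells that the dissected tissue could hold are given for the makeup of the samples. Of 6 genes shared by epithelial cells limma called 0, with 1 at an unadjusted p under 0.05, and Epcam changed by -0.28 (adjusted p = 0.592). Krt14, the keratin leading the basal epithelial rises, rose by 4.31 (adjusted p = 6.77e-06). Ptprc, the common leukocyte antigen, changed by 0.22 (adjusted p = 0.628), while the macrophage gene Cd68 rose by 1.79 (adjusted p = 0.00418). Of 7 blood endothelial genes 1, Tek, was called (0.46, adjusted p = 0.0492), and it kept the call only when exposed mouse 1 or unexposed mouse 3 was the one left out (adjusted p up to 0.114 in the other 8 of 10 fits). Of 4 Schwann cell genes limma called 0, with 1 at an unadjusted p under 0.05. All 11 mitosis genes rose, Mki67 by 2.26 (adjusted p = 4.40e-05). None of these counts tests whether the activated markers differ from another list.

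**Figure D5:**
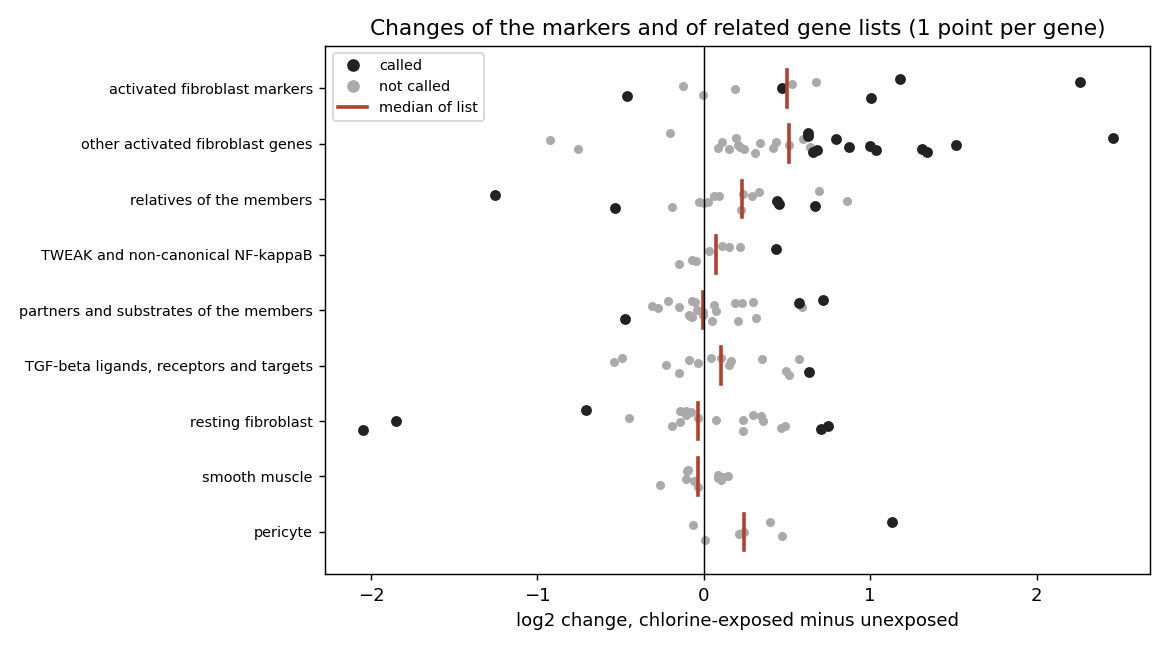
Log2 change of each gene, chlorine-exposed minus unexposed (horizontal axis), for the 10 markers and 8 related lists (rows), with called genes in black, others in grey and the median of each list as a red bar. The medians of the 10 markers and of the other activated fibroblast genes stand at 0.50 and 0.51, and that of resting fibroblast genes at -0.04.

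The genes whose pattern over the 10 mice was most like the mean of the 10 markers were Snai1, Apoc2, Emilin1, Sdc3 and Tgfb1. Likeness was the root mean square difference between profiles standardised over the 10 mice, among 6745 genes spanning at least 1 log2 unit, and it ran from 0.24 for Snai1 to 0.33 for Tgfb1, with a median of 1.32 over those genes. Among the markers themselves it ran from 0.42 for Adam12 to 1.64 for Runx1, whose profile was farthest from the mean of the list. Snai1, a transcription factor gene of mesenchymal transition, changed by 0.44 (adjusted p = 0.244), with 6.28 to 7.61 in exposed mice and 6.27 to 6.54 in unexposed mice. Tgfb1, a main profibrotic cytokine, changed by 0.51 (adjusted p = 0.0615), with 7.29 to 8.12 in exposed mice and 6.75 to 7.18 in unexposed mice, and passed without exposed mouse 1 (adjusted p = 0.0447). The heparan sulfate proteoglycan gene Sdc3 changed by 0.40 (adjusted p = 0.139). Emilin1, of elastic fibres, rose by 0.71 (adjusted p = 0.0335) and Apoc2, an apolipoprotein gene, by 1.00 (adjusted p = 0.0233). Both lost their calls without any 1 of exposed mice 2 and 4 and unexposed mice 1, 3 and 4, and Emilin1 also without unexposed mouse 2 or 5 (adjusted p up to 0.0778 for Emilin1 and 0.0609 for Apoc2).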

How the data were processed

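The authors deposited log2 intensities, 1 array per mouse. The submitters' processing notes name RMA (robust multi-array averaging) and Partek 6.6, and the log base was read from the range of the values. The genome build, any filter and the RMA settings were not given in the sources used here. No further normalization was applied. Of 41345 probe sets, 23521 had 1 gene symbol in the platform annotation, 1814 had several and 16010 were not listed. A gene's value was the mean of its single-symbol probe sets, which gave 22180 genes. All value columns matched a mouse by name.

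Exposed and unexposed mice were compared in R 4.3.3 by limma 3.58.1 (lmFit, then eBayes, two-sided, no covariate), with Benjamini-Hochberg adjustment over all genes. Precision is limited by the number of arrays. On simulated data of this comparison, 86% of genes changed by 1 log2 unit and 99% of those changed by 2 were called, with 11 false calls. The simulated noise was normal, independent between genes and of equal SD in both groups, and few genes were changed. The real data differ in these respects, so the shares are not their power. The mice are separate animals. The markers, the 16 gene lists, the alternatives and the rule for naming genes were chosen with earlier results of these data known. Genes named were the 10 markers, up to 3 called genes per list and direction, any gene of the lists of relatives and of TWEAK signalling, the 5 of most similar profile, and Epcam, Krt14, Ptprc, Acta2, Col1a1 and Mki67; Tgfb1 and Snai1 also stand in fixed lists. Grem1, Col8a1, Col1a2, Krt15, Trp63, Lyz2, Cd14, Csf1r, Spi1 and Cd3e were named outside this rule, as genes of their lists that were not called. Ccn4, Vim, Col5a1, Lox and Pdgfra were also named outside it, as called genes that lost their calls without 1 mouse. Promoter windows are RefSeq's, of GRCm38.p6, and motifs were matched as letters. Figures were drawn with matplotlib 3.10.9 and tables with pandas 2.3.3, under Python 3.11.15.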

Additional observations from a re-analysis of the deposited data

Results flagged for a closer look

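In all, 106 groups of 5 mice were checked, for 53 of the genes named in the report or by its rule. Of these groups, 8 held 1 mouse whose gap to the next was large for its group, where chance gives about 5%. None of the 8 was among the 20 groups of the 10 markers. Exposed mouse 3 gave 3 of them: Ezr stood at 8.90 there (9.33 to 9.49 in the other exposed mice), Dsg3 at 6.88 (8.01 to 8.45) and Tgfb1 at 8.12 (7.29 to 7.47). Unexposed mouse 5 gave another 3: Ces1d at 8.49 (8.91 to 9.08 in the other unexposed mice), Mrc1 at 6.56 (7.63 to 7.95) and Ptprc at 6.63 (7.22 to 7.40). Unexposed mouse 2 gave 2: Inmt at 7.35 (8.00 to 8.13) and Dsg3 at 4.91 (3.63 to 3.98).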

How the results depend on the processing

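The 10 markers were refitted under 9 other settings and without each mouse in turn, and 167 of 189 values kept their direction and their side of the threshold. Of the others, 15 lost a call, 2 gained one and 5 changed sign, all of them Prrx1, whose log2 change was 0.028 with arrays centred on their medians and -0.14 to 0.13 with 1 mouse left out. The number of markers called, 5 with all mice, was 2 at an adjusted p under 0.01, 3 at a fold of at least 2, and 3 to 5 with 1 mouse left out. The number of genes called, 2400 of 22180, was 1054 at an adjusted p under 0.01, 760 at a fold of at least 2, and 1669 to 2839 with 1 mouse left out. Without exposed mouse 3, calls were 0 of 8 for TWEAK, 1 for partners, 2 for TGF-beta, 0 for blood endothelium, 8 for cartilage and 1 for Schwann cells, against 1, 3, 1, 1, 4 and 0 with all mice. Deviations of same-numbered mice from their group means correlated at -0.05 to 0.12 over 5 pairs, not above 0.1 in every pair, so the numbers were not taken to pair the animals. With the mouse number as a replicate block, 1880 genes and 4 markers were called, and Runx1 had an adjusted p of 0.0521. The filter on dim genes left out Lrrc15 and could not alter the log2 change of the other markers, only their adjusted p. Each marker has 1 probe set, so taking the brightest probe set could not alter its log2 change. Values of these 2 settings are counted among the 167, which therefore overstates how far the results held. The cause of these changes was not tested.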
